A study of Drosophila melanogaster with 8 samples.

Results

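Weak one-strand starts are capped RNA 5′ ends that lie outside strong promoters and have no opposite-strand partner above a low level nearby. Tag positions in D. melanogaster S2 cells were grouped into tag clusters (TCs), by joining positions with 2 or more tags in a library when they lay within 20 bp on a strand and dropping positions under 0.1 of the tags at the summit. Of 688364 TCs in all, 15612 on chromosome arms 2L and 3L had a mean of 0.3 to 2 tags per 1e+06 tags of a library (TPM) over the 8 libraries. Among these, 1033 starts (6.62%) had no opposite-strand TC of 0.05 or more mean TPM within 500 bp and no TC of 5 or more mean TPM, called strong here, within 1 kb of the summit. The arms were used up to fixed positions near their centromeric ends. The starts were thus chosen by their mean level over all 8 libraries and by the levels of their neighbours, so that their low level and the lack of such a partner are descriptions and not results. The difference between the groups of libraries took no part in the choice.

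Transcription by RNA polymerase II starts at core promoters, which direct initiation on 1 strand, and promoters and enhancers often hold a pair of them that point away from each other. Cap analysis of gene expression (CAGE) reads short tags from the capped ends of RNAs, which place initiation at a base pair and a strand. The nuclear exosome degrades RNA from its 3′ end and removes many short noncoding RNAs that arise upstream of promoters and at enhancers. Dis3 and Rrp6 are its catalytic subunits.

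S2 is a cell line of embryonic origin, and 8 libraries were made from its total RNA, 4 labelled control and 4 labelled exosome knockdown. By the study's description, cells kept at 27 °C received 40 µg of double-stranded RNA, either against GFP or as 20 µg against Rrp6 with 20 µg against Dis3. The dose was given again on day 2 and cells were harvested on day 4. RNA interference lowers its targets without removing them, and it acted on a whole culture of a single cell line. The study calls the replicates biological, and nothing in the sample descriptions names separate cultures, so that p-values measure the spread between these libraries. Libraries were barcoded and sequenced 4 to a pool. The pool of each library is not named, so pool and group cannot be told apart.

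Before any direction is given, the labels need a warning. The study's own expression table has 8 library columns, and each matched 1 library here by the size of a single tag. In the matched library, 100% of low values came out as whole tags within 0.05 of a tag, and in the next best at most 39.0% did. All 4 columns named for the knockdown matched libraries labelled control, and all 4 columns named for GFP matched libraries labelled exosome knockdown. The names of all 8 deposited files also carry the word of the other group. Libraries are therefore named by their labels throughout, and a log2 fold change is above 0 where the libraries labelled control were the higher ones. Library totals ran from 33565925 to 46388382 tags. Gene annotation of the build used by the files, dm3, was not used here, so the starts carry no gene names, and levels of Dis3, Rrp6 and S2 marker genes were not analysed.

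The weak one-strand starts were narrow. Their median width was 8 bp, with quartiles of 2 and 35 bp, and 197 of 1033 (19.1%) consisted of a single position. Among the 6198 weak TCs with an opposite-strand TC upstream within 500 bp, called weak divergent TCs here, the median width was 28 bp and 7.44% were a single position. In the 6769 TCs of the same level within 1 kb of a strong TC the median width was 22 bp, with 14.8% at a single position. The most used position held a median of 53.7% of the tags of a one-strand start, of 31.6% in weak divergent TCs and of 37.1% in those near strong TCs. Tags at the summit were compared between groups in starts with 10 or more tags in the library, and the median share was 55.6% ± 1.70 under the control label and 54.5% ± 1.36 under the exosome knockdown label (SD, n = 4 each). These shares overlapped (exact permutation test, two-sided, p = 0.40).

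The starts were spread over both arms and strands, with 525 on 2L and 508 on 3L, and 524 on the plus and 509 on the minus strand. Their mean level ran from 0.3 to 1.98 TPM with a median of 0.488 TPM, and a start held a median of 156 tags over the 8 libraries. Just inside the lower limit stood chr2L:19554573-19554632 at 0.300142 TPM and chr2L:16690975-16690975 at 0.300195 TPM. Just outside it stood chr3L:7988908-7988908 at 0.299955 TPM and chr2L:5946339-5946370 at 0.299541 TPM. At the upper limit, chr3L:19069252-19069284 and chr3L:12109235-12109250 stood inside at 1.98 and 1.97 TPM, and chr3L:5647798-5647802 and chr3L:12734906-12734915 outside at 2.00114 and 2.00878 TPM.

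The opposite strand was seldom empty. An opposite-strand TC under the limit of 0.05 mean TPM lay within 500 bp of 874 starts (84.6%), and 159 had none. Within 500 bp of the summit, 1014 starts had at least 1 opposite-strand tag and 19 had none, with a median of 37 tags over the 8 libraries. A median of 82.8% of tags, counting those of the start and all opposite-strand tags in this window, came from the start, and for 28 starts the share was under 50%. On the same strand, 294 starts had no other TC of 0.05 or more mean TPM within 500 bp, 128 had 1 and 611 had 2 or more, up to 16. Starts within 1 kb of each other on a strand formed 827 loci, of which 691 held a single start, so that the starts are not independent of each other.

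Summed over all starts, the libraries labelled control held 717, 605, 809.8 and 899 TPM in replicates 1 to 4. Those labelled exosome knockdown held 595, 490.3, 502 and 739.6 TPM. Replicate 4 was the highest in both groups, and the groups overlapped. The means were 758 ± 126 and 582 ± 115 TPM (SD, n = 4 each), and the difference of 176 TPM did not pass an exact permutation test over libraries (two-sided, p = 0.114, 0.25 after Benjamini-Hochberg adjustment over the 7 such tests made). In bulk RNA, fewer cells that use a start and less RNA per cell cannot be told apart. Relative to weak divergent TCs, the log2 ratio of summed TPM was −2.62 ± 0.12 under the control label and −2.58 ± 0.23 under the exosome knockdown label (SD, n = 4 each, exact permutation p = 0.743). Relative to weak TCs near strong TCs it was −2.86 ± 0.12 and −2.94 ± 0.17 (exact permutation p = 0.514). The summed level of one-strand starts was not shown to move apart from that of the other weak TCs.

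**Figure D1:**
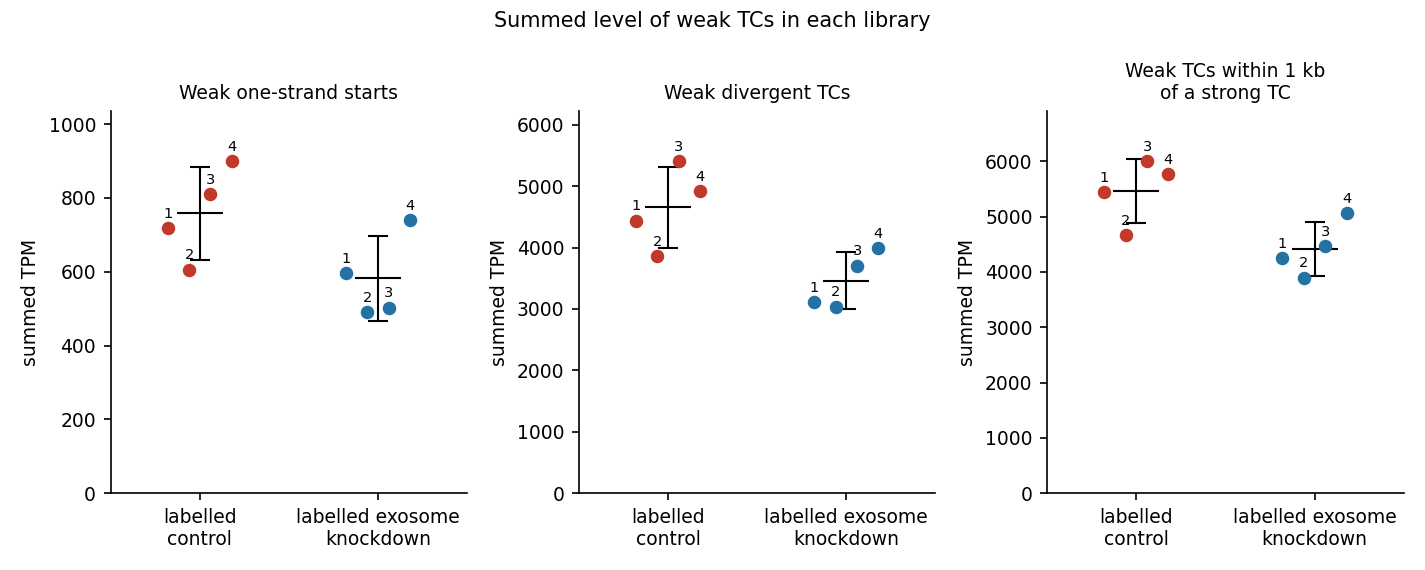
Summed TPM (vertical axes, linear from 0 and of different height) of the 1033 weak one-strand starts, 6198 weak divergent TCs and 6769 weak TCs within 1 kb of a strong TC in each library. Points are libraries with their replicate number, and black marks are means with SD (n = 4). For the one-strand starts, replicate 4 labelled exosome knockdown, at 739.6 TPM, lies above replicates 1 and 2 labelled control, at 717 and 605 TPM.

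Individual starts moved in both directions. With edgeR's quasi-likelihood test over 192980 TCs of 0.05 or more mean TPM, which took in all 1033 starts, 284 starts (27.5%) were higher in the libraries labelled control and 141 (13.6%) lower, at an adjusted p of 0.05 (Benjamini-Hochberg). The remaining 608 did not pass. Of all TCs tested, 20.7% were higher and 7.39% lower. Of the 15612 TCs in the same range of level on the same arms, 26.2% were higher and 13.3% lower. The shares of one-strand starts were near this background, whose median level of 0.537 TPM was somewhat above that of the starts. The share of starts that were higher was 22.4% at 0.3 to 0.4 TPM and 33.1% at 1 to 2 TPM. Weak divergent TCs had 27.2% higher and 12.0% lower, and weak TCs near strong TCs 26.8% and 14%.

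The median log2 fold change of the starts was 0.12, beside 0.11 over all TCs tested and 0.04 in the same range of level. Quartiles were −0.71 and 1.54, and the 5th and 95th percentiles −2.01 and 5.69, so that the distribution had a long upper tail. A log2 fold change over 3 was reached by 148 starts (14.3%) and one under −3 by 13. One over 3 was reached by 12.8% of all TCs tested, 12.8% in the same range of level and 14.8% of weak divergent TCs. Their 95th percentiles were 5.14, 4.92 and 5.32, so that the long upper tail was not particular to the starts. One under −3 was reached by 13 of the 1033 starts and 2144 of the 192980 TCs tested. It was reached by 121 of the 15612 TCs in the same range of level and 30 of the 6198 weak divergent TCs. The share of the level in the libraries labelled control that was gained over the other group, (control − knockdown)/control of the mean TPM with negative values set to 0, was under 0.25 for 587 starts (56.8%) and over 0.75 for 232 (22.5%). In the same range of level on the same arms these shares were 59.6% and 19.1%. Turned round, (knockdown − control)/knockdown, the share was under 0.25 for 696 starts (67.4%) and over 0.75 for 50 (4.84%), beside 68.1% and 3.55%. The starts that were higher summed to 345 ± 38.4 TPM under the control label and 46.8 ± 9.81 TPM under the other, and the starts that did not pass summed to 367 ± 100.2 and 379 ± 87.3 TPM (SD, n = 4 each). These sums follow from the calls and are a description.

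Groups did not overlap for 265 starts (25.7%) with higher and 91 (8.81%) with lower levels under the control label. In the same range of level on the same arms, 25.6% and 12.8% of TCs did not overlap. Leaving out each library in turn kept 246 of the 284 calls of higher starts in all 8 fits, and 73 of the 141 calls of lower starts. No call changed direction in these fits. The largest losses were 43 of the 141 lower calls without replicate 1 labelled control and also 43 without replicate 1 labelled exosome knockdown.

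**Figure D2:**
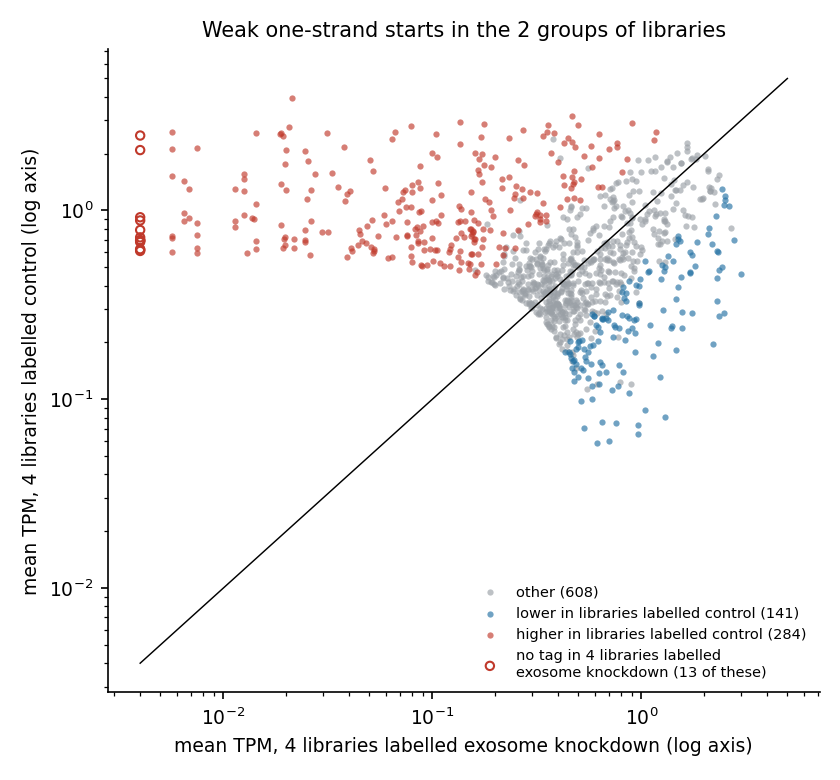
Mean TPM of each of the 1033 starts in the 4 libraries labelled exosome knockdown (horizontal, log axis) and the 4 labelled control (vertical, log axis), coloured by the edgeR call. Open circles at the left edge are the 13 starts with no tag in the libraries labelled exosome knockdown, which have no place on a log axis, and the line marks equal levels. The empty lower left corner follows from the lower limit of 0.3 TPM used to choose the starts, and rises extend much further from the line than falls.

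The 6 largest rises among starts with non-overlapping groups, 1 or more mean TPM in the higher group and a tag in every library of the lower group, of 68 that met these terms, lay at both arms and in different surroundings. At chr2L:13567580-13567624, plus strand, levels were 2.92, 2.42, 3.21 and 1.90 TPM in replicates 1 to 4 labelled control and 0.0683, 0.0894, 0.0520 and 0.0547 TPM in replicates 1 to 4 labelled exosome knockdown. This start of 13 positions lay 17448 bp downstream of a strong TC on its strand, and its log2 fold change was 5.21 ± 0.43 (SE, edgeR adjusted p = 2.9e-08). A narrow start of 2 positions at chr2L:8110067-8110081, minus strand, held 1.31, 1.31, 1.36 and 1.09 TPM under the control label and 0.0228, 0.0596, 0.0520 and 0.0273 TPM under the other, a log2 fold change of 4.87 ± 0.48 (SE, edgeR adjusted p = 2.29e-07). Its replicates were close to each other within the higher group.

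At chr3L:17616172-17616173, plus strand, the libraries labelled control spread from 0.289 to 2.28 TPM while the others stayed between 0.0260 and 0.0547 TPM (log2 fold change 4.79 ± 0.65 SE, edgeR adjusted p = 9.84e-06). Antisense to a strong TC 5923 bp away, chr3L:17940805-17940807 held 1.82, 1.16, 2.41 and 4.81 TPM against 0.114, 0.0298, 0.0260 and 0.246 TPM (4.51 ± 0.55 SE, edgeR adjusted p = 2.55e-06). Replicate 4 was the highest of both groups there. A single position at chr3L:5544250-5544250, minus strand, held 1.55, 1.52, 5.76 and 2.93 TPM against 0.0683, 0.149, 0.104 and 0.219 TPM (4.36 ± 0.48 SE, edgeR adjusted p = 8.86e-07). At chr3L:8666689-8666691, plus strand, 2370 bp upstream of a strong TC of 390.4 TPM on the same strand, levels were 1.46, 1.79, 2.65 and 1.74 TPM against 0.114, 0.119, 0.104 and 0.0820 TPM (4.10 ± 0.41 SE, edgeR adjusted p = 2.43e-07). All 6 kept their call when any 1 library was left out.

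Falls were smaller, and 33 starts met the same terms. The largest was at chr2L:1938275-1938301, plus strand, with 0.113, 0.0788, 0.0216 and 0.109 TPM in replicates 1 to 4 labelled control and 0.638, 1.40, 2.21 and 0.956 TPM in replicates 1 to 4 labelled exosome knockdown (log2 fold change −4.01 ± 0.52 SE, edgeR adjusted p = 6.42e-06). It lay 26551 bp from the nearest strong TC. More remote still, the 2 positions of chr2L:14047586-14047590, plus strand, lay 80571 bp from one and held 0.157, 0.105, 0.129 and 0.136 TPM against 1.18, 1.37, 1.53 and 0.820 TPM (−3.24 ± 0.41 SE, edgeR adjusted p = 4.9e-06). At chr2L:8450880-8450931, minus strand, a start of 10 positions held 0.450, 0.0788, 0.367 and 0.245 TPM against 1.5, 2.21, 3.67 and 2.54 TPM (−3.13 ± 0.42 SE, edgeR adjusted p = 9.99e-06).

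A pair of falls lay just beyond the 1 kb limit, on the strand of the strong TC upstream of them. The first, chr3L:8885759-8885760 at 1067 bp, held 0.202, 0.184, 0.237 and 0.109 TPM against 1.37, 0.834, 2.29 and 1.39 TPM (−2.99 ± 0.41 SE, edgeR adjusted p = 1.13e-05), and the strong TC itself had a log2 fold change of −2.65. The other, the single position chr3L:9609061-9609061 at 1041 bp, held 0.0900, 0.0788, 0.0216 and 0.761 TPM against 2.21, 1.07, 1.43 and 1.53 TPM (−2.82 ± 0.61 SE, edgeR adjusted p = 0.00131), beside −1.78 at its strong TC. The last of the 6, chr3L:18872767-18872813, minus strand, stood among 16 other TCs of its strand within 500 bp and held 0.405, 0.0788, 0.388 and 0.462 TPM against 1.96, 1.04, 2.39 and 3.8 TPM (−2.79 ± 0.43 SE, edgeR adjusted p = 4.89e-05). Its nearest strong TC had a log2 fold change of 0.26. For the falls of the paragraph above, the nearest strong TC had 0.43, −1.15 and 2.31 in the order given, so that falls did not always go with it.

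**Figure D3:**
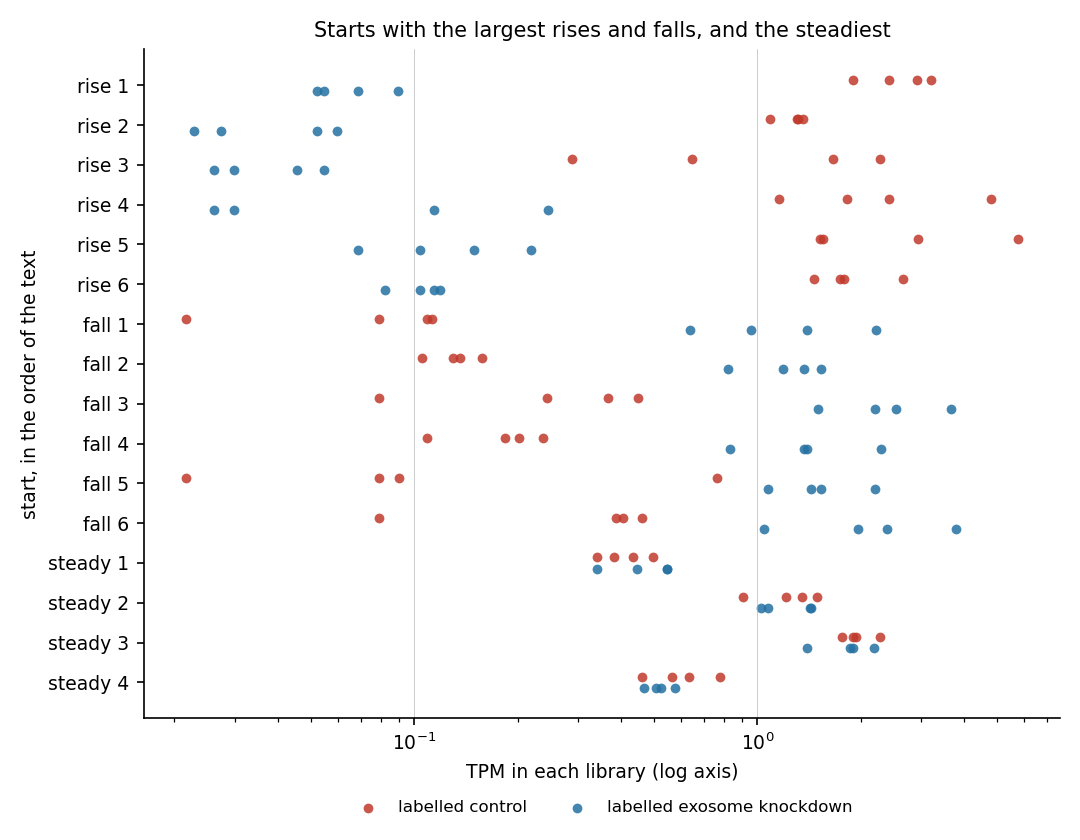
TPM in each library (horizontal, log axis) of the 6 starts with the largest rises and the 6 with the largest falls, in the order of the text, and the 4 steadiest starts in the order of their log2 fold change. Each point is a library, red for those labelled control and blue for those labelled exosome knockdown. The groups are apart in every rise and fall, by the terms of the choice, and overlap in the 4 steady starts.

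A set of 13 starts went without a tag under the exosome knockdown label and had a tag in every library labelled control. No start lacked a tag in all 4 labelled control. In the same range of level on the same arms, 0.743% of TCs (116) had no tag in the 4 libraries labelled exosome knockdown and 0.0% none in the 4 labelled control, beside 1.26% of the starts for the first. A start absent from a group could be chosen only through its level in the other, so these starts had to differ. A count of 0 over the 4 libraries allows up to 3 tags, or 0.0197 TPM, for counting error only. Against this limit, with the tags of each group pooled over its 4 libraries, the 13 were at least 30.7 to 129-fold higher in the libraries labelled control. The 4 with most tags were named after their values were seen. At chr2L:6784531-6784608, plus strand and facing a strong TC of 1152 TPM at 2297 bp, levels were 3.28, 2.76, 2.74 and 1.20 TPM, at least 129-fold higher. At chr3L:3431139-3431180, replicate 4 with 7.44 TPM held most of the tags, and replicates 1 to 3 held 0.787, 0.0788 and 0.0431 TPM. The other 2, chr3L:19069352-19069352 and chr2L:5293532-5293551, were at least 49.1 and 44.2-fold higher. The first of these is next to chr3L:19069252-19069284, the strongest start of all at 1.98 mean TPM, which had 677 tags in the libraries labelled control and 3 in the others.

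At the other end stood starts that scarcely varied. The coefficient of variation over the 8 libraries was 62.2% at the median start and 13.9% at the steadiest, chr3L:3899155-3899158, minus strand, with 2.27, 1.94, 1.90 and 1.77 TPM labelled control and 1.87, 1.40, 1.90 and 2.19 TPM labelled exosome knockdown. Its neighbour chr3L:3899109-3899134, on the same strand and facing the same strong TC, came next with 17.6%, and its log2 fold change was −0.02 ± 0.32 (SE, edgeR adjusted p = 0.977). The single positions chr3L:16103158-16103158 and chr2L:2149002-2149002 followed with 18.3% and 18.8%. An adjusted p that misses the threshold does not show equal levels.

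Starts could also be carried by 1 library. In 46 starts a single library held over 50% of the summed TPM, which was replicate 4 labelled control for 21, replicate 4 labelled exosome knockdown for 19 and replicate 3 labelled control for 6. No such count is given for other weak TCs, so it cannot be read as particular to the starts. The largest such share was 89.1%, at chr3L:3431139-3431180. At chr2L:18813011-18813012, plus strand, replicate 4 labelled exosome knockdown held 3.55 TPM and the others of its group 0.228, 0.0596 and 0.0260 TPM, and its log2 fold change of −3.69 ± 1.07 (SE, edgeR adjusted p = 0.012) became −0.73 with an adjusted p of 0.645 without that library. At chr3L:18828937-18828999, replicate 4 labelled control held 5.30 TPM, and the other libraries of that group 0.900, 0.0525 and 0.0216 TPM. There the call (edgeR adjusted p = 0.000819) was kept in all 8 fits.

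Among the 197 starts left with 1 position, those with most tags were not the ones that moved most. Positions under 0.1 of the tags at the summit had been dropped, so a single position may have had weaker neighbours. At chr3L:8738371-8738371, minus strand, all 639 tags counted fell on 1 base. Levels were 2.95, 2.50, 2.13 and 1.55 TPM labelled control and 2.16, 1.34, 1.61 and 1.5 TPM labelled exosome knockdown. The log2 fold change was 0.44 ± 0.33 (SE, edgeR adjusted p = 0.366). At chr3L:12074926-12074926, with 594 tags, the log2 fold change was 0.09 ± 0.33 (SE, edgeR adjusted p = 0.883). The third, chr3L:4687366-4687366, fell by 1.37 ± 0.40 on the log2 scale (SE, edgeR adjusted p = 0.0131), and without replicate 1 labelled exosome knockdown the adjusted p was 0.0597. Its groups overlapped. The widest starts were chr2L:218095-218303 with 209 bp and 35 positions, chr3L:15004709-15004863 with 155 bp and chr3L:20995113-20995263 with 151 bp. The first had a log2 fold change of 0.85 ± 0.35 (SE, edgeR adjusted p = 0.0799), the second fell by 2.82 ± 0.58 (edgeR adjusted p = 0.000835) and the third rose by 1.53 ± 0.38 (edgeR adjusted p = 0.00392).

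The position relative to the nearest strong TC was not used beyond the 1 kb limit, and the calls differed along it. The nearest strong TC lay at a median of 3824 bp, with quartiles of 1903 and 10568 bp. For 516 starts (50%) it lay upstream on the same strand, and these are called sense starts. Whether RNA of the strong TC reached the start was not tested, so the names give position and strand only. For 222 (21.5%) it faced the start from downstream on the opposite strand, and these are called antisense starts. Another 165 (16%) lay upstream of a strong TC on their own strand, and 130 (12.6%) stood back to back with one.

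Sense starts had the lowest median log2 fold change, −0.12, with 125 of 516 higher (24.2%) and 85 lower (16.5%). Antisense starts had a median of 0.37, with 30.6% higher and 11.7% lower. Back to back starts had the highest, 0.55, with 35.4% higher and 8.46% lower, and starts upstream on the same strand had 0.19, with 27.3% higher and 11.5% lower. Weak divergent TCs in these 4 arrangements had median log2 fold changes of −0.01, 0.25, 0.26 and 0.10 in the order sense, antisense, back to back and upstream. Of them 23.1%, 30.9%, 32.7% and 28.2% were higher, so that the higher shares by arrangement were close to those of the starts. The lower shares were 12.3%, 9.7%, 14.2% and 14.2%, in another order than in the starts. Back to back starts were lower least often, which did not hold for weak divergent TCs. The log2 ratio of summed TPM of sense to antisense starts was 1.02 ± 0.20 under the control label and 1.21 ± 0.09 under the exosome knockdown label (SD, n = 4 each), a difference that did not pass (exact permutation test, two-sided, p = 0.143, adjusted 0.25). With starts within 5 kb of a strong TC alone, the difference was −0.55, without overlap of the groups (exact permutation p = 0.0286, the smallest that 4 against 4 allows, and not adjusted for the other tests).

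Over all starts, calls also differed with distance. Within 1 to 2 kb of a strong TC, 41 of 279 starts (14.7%) were higher and 47 (16.8%) lower in the libraries labelled control, with a median log2 fold change of −0.21. At 2 to 5 kb 28.3% of 307 starts were higher, at 5 to 20 kb 35.7% of 294, and beyond 20 kb 33.3% of 153. Sense starts showed the widest range, from 11.4% higher and 18.8% lower at 1 to 2 kb to 46.3% higher and 4.88% lower beyond 20 kb, the last over 41 starts. The other arrangements had no such steady order. From the nearest to the farthest bin, 27.3%, 30.6%, 27.7% and 37.8% of antisense starts were higher, 36%, 44%, 42.5% and 22.5% of back to back starts, and 10%, 32.7%, 34% and 22.2% of starts upstream on the same strand. In weak divergent TCs the share that was higher was 26.9% at 1 to 2 kb, 23.9% at 2 to 5 kb, 31.9% at 5 to 20 kb and 39.4% beyond. The 3 starts farthest from a strong TC lay on 2L. The farthest of all, the single position chr2L:14689337-14689337 on the minus strand at 316405 bp, held 0.652, 0.420, 0.280 and 0.190 TPM in replicates 1 to 4 labelled control and 0.433, 0.358, 0.104 and 0.191 TPM in the others, with a log2 fold change of 0.46 ± 0.52 (SE, edgeR adjusted p = 0.573). At chr2L:14713761-14713767, 291975 bp from one, replicate 4 labelled control held 5.49 TPM and the other 3 of its group 0.900, 0.867 and 0.798 TPM, and the log2 fold change was 3.59 ± 0.74 (SE, edgeR adjusted p = 0.00083). At chr2L:14615554-14615578, at 253484 bp, the groups overlapped, with −0.73 ± 0.58 (SE, edgeR adjusted p = 0.394). The distance bins were chosen after values were seen and carry no test.

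Sense starts at 1 to 2 kb summed to 94.8, 68.7, 126 and 111 TPM in replicates 1 to 4 labelled control and to 101, 87.0, 114 and 138 TPM in replicates 1 to 4 labelled exosome knockdown, with overlap. Sense starts beyond 5 kb summed to 139.6, 118, 146 and 149 TPM against 82.7, 70.5, 63.3 and 99.5 TPM, with no overlap. Log2 fold changes of a start and its nearest strong TC were correlated over all distances. The Pearson and Spearman values were 0.45 and 0.54 over the 516 sense starts. In the other arrangements they were 0.20 and 0.22 over 222 antisense starts and 0.24 and 0.27 over 130 back to back starts. For the 165 starts upstream of a strong TC on their strand they were 0.43 and 0.30. No such value is given for sense starts beyond 5 kb alone, and the part of the strong TCs in the sums was not tested. Over the 202 sense starts at 1 to 2 kb, the log2 fold change of the start and of its strong TC had a Pearson correlation of 0.38 and a Spearman correlation of 0.64 (in the same order). At that distance the values were 0.56 and 0.23 over 22 antisense starts, 0.36 and 0.35 over 25 back to back starts, and −0.09 and −0.12 over 30 starts upstream of a strong TC on their strand. These correlations are across starts, which share libraries and in part the same strong TC, and are descriptions.

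**Figure D4:**
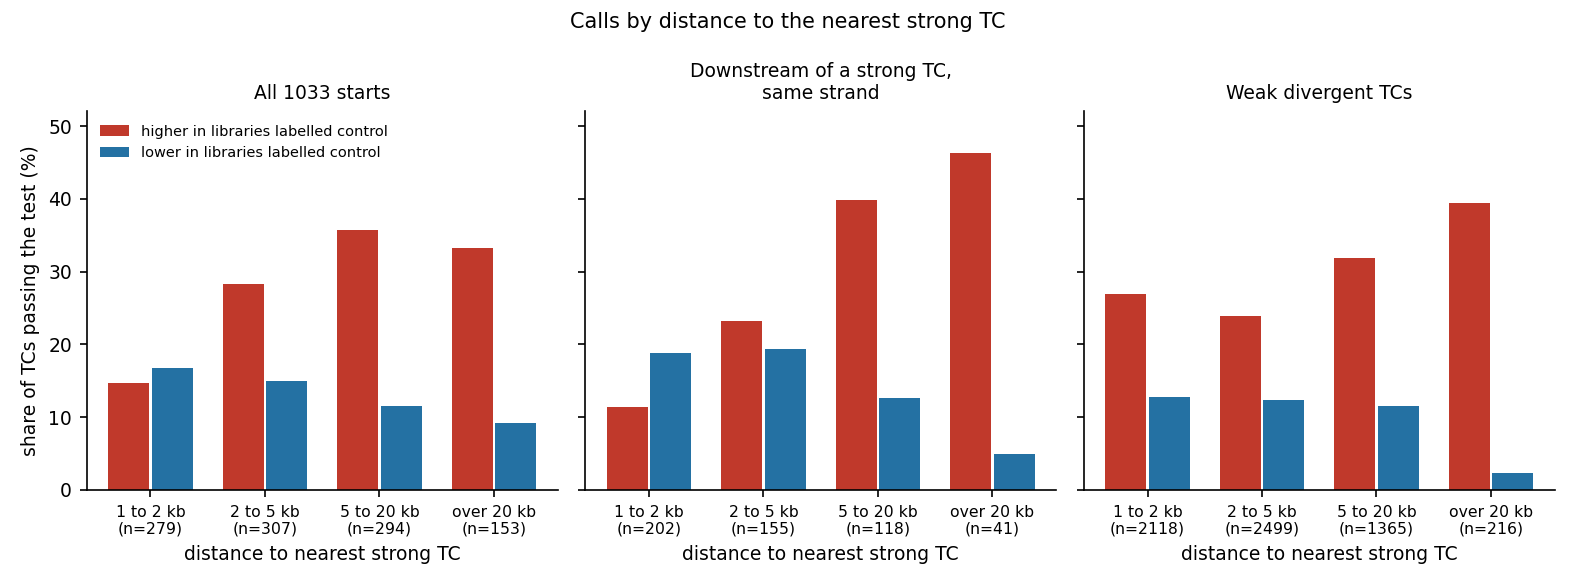
Share of TCs called higher (red) or lower (blue) under the control label at an edgeR adjusted p of 0.05 (vertical, percent, from 0), by distance to the nearest strong TC. The panels are all 1033 weak one-strand starts, the 516 of them downstream of a strong TC on the same strand, and the 6198 weak divergent TCs, with the number in each bin. For the sense starts the red bars go from 11.4% to 46.3% with distance.

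Calls also differed with the surroundings on the same strand, in the starts as in other weak TCs. Of 294 starts with no other TC of their strand within 500 bp, 35.7% were higher and 9.18% lower, with a median log2 fold change of 0.45. Of the 611 with 2 or more such neighbours, 21.4% were higher and 16.5% lower, with a median of −0.08. Over all 15612 TCs in the range of level on these arms, 43.9% were higher without a neighbour and 25% with 2 or more, and in weak divergent TCs 61.1% (of 95) and 25.9%. By width, starts of 6 to 20 bp were higher most often (40.0% of 180) and starts over 50 bp least often (18.3% of 180). Width classes were chosen after values were seen, and the order over widths was not even, with 27.4% of single positions, 25.5% of starts of 2 to 5 bp and 27.3% of those of 21 to 50 bp. The 15612 TCs had 29.6% higher at 6 to 20 bp and 24.5% over 50 bp, and weak divergent TCs 31.6% and 25.2%.

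Opposite-strand tags around the starts were limited by the rule, which allowed no TC of 0.05 or more mean TPM there over all 8 libraries. Within 500 bp of the summits they summed to 154, 145, 166 and 188 TPM in replicates 1 to 4 labelled control and to 100.4, 117, 112 and 139.6 TPM in replicates 1 to 4 labelled exosome knockdown. All 4 libraries labelled control stood above all 4 of the other group. The means were 163 ± 18.4 and 117 ± 16.5 TPM (SD, n = 4 each), a ratio of 1.39 (exact permutation test, two-sided, p = 0.0286, the smallest possible here, and 0.10 after adjustment over the 7 tests, so that it did not pass). Over the same groups the summed level of weak divergent TCs had a ratio of 1.35. Upstream of the summits, where a divergent partner would lie, the means were 73.4 ± 9.99 and 47.4 ± 7.62 TPM, a ratio of 1.55. Downstream they were 89.8 ± 8.41 and 69.7 ± 9.58 TPM, a ratio of 1.29. Windows of neighbouring starts overlap, so that some tags were counted for more than 1 start.

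**Figure D5:**
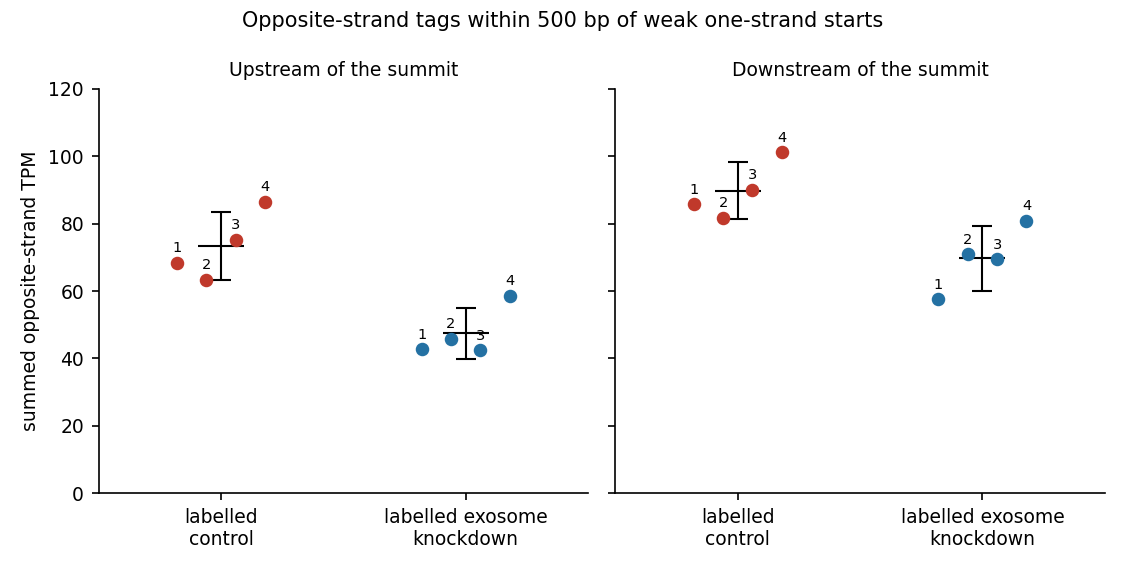
Opposite-strand TPM summed over windows of 500 bp upstream (left) and downstream (right) of the summits of the 1033 starts, in each library (points with replicate numbers). Black marks are means with SD (n = 4), and both axes start at 0 with the same scale. Every library labelled control lies above every library labelled exosome knockdown on both sides.

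The starts were seen in most libraries. A tag was found in all 8 libraries for 854 starts, in 7 for 90, in 6 for 49, in 5 for 24 and in 4 for 16. The libraries labelled control had a tag at 1029, 1020, 1021 and 1032 of the 1033 starts and those labelled exosome knockdown at 990, 957, 919 and 972, again without overlap (exact permutation test, two-sided, p = 0.0286, adjusted 0.10, which did not pass). With every library thinned to the smallest total the counts were 1027, 1014, 1017 and 1032 against 987, 957, 909 and 972 starts. Across starts, Pearson correlations of log2(TPM + 0.1) were 0.30 to 0.78 between libraries labelled control, 0.56 to 0.82 between those labelled exosome knockdown and −0.31 to 0.18 between the groups. These are descriptions across starts chosen within limits on their mean over all 8 libraries, and the part of those limits in the values between groups was not tested. No 2 libraries were copies, since the chi-square per start between libraries of a group was 3.71 or more, where counting error alone gives about 1.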

How the data were processed

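The deposited files hold counts of CAGE tags by strand and dm3 position of their first base, with no normalization. The authors trimmed the reads, filtered them on quality, and mapped them with Bowtie 1.1.1, keeping unique matches with at most 2 mismatches. Removal of duplicate reads is not given in the sources used here, so tags are not independent molecules, and limits cover counting error only. TPM was computed as tags per library total. The starts and the classes compared with them were chosen with earlier results of these data known.

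Counts per TC were tested with edgeR 4.0.16 (TMM, quasi-likelihood, R 4.3.3, limma 3.58.1), with DESeq2 1.42.0 as an alternative. TMM factors were 0.870 to 1.11. SE was taken from the log2 fold change and its F value. Single values were compared by exact permutation of the group labels over the 8 libraries (two-sided, by doubling the smaller tail). Scripts were tested on simulated data. Named starts were the 6 with the largest rise and fall under the terms given, the 4 steadiest, the 3 most confined to 1 library, the 3 widest, the 3 with most tags at 1 position, the 3 farthest from a strong TC, and those at each level limit. Values were computed and drawn with numpy 2.4.6, scipy 1.17.1, pandas 2.3.3 and matplotlib 3.10.9 under Python 3.11.15.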

Additional observations from a re-analysis of the deposited data

Results flagged for a closer look

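Each group of 4 libraries was searched for a library far from the other 3, in 84 groups of values, and 5 were found, all replicate 4 and all at single starts. Chance flags about 1 in 20 groups, a rate that does not hold for starts chosen for their share in 1 library. The starts chr3L:3431139-3431180, chr3L:18828937-18828999 and chr2L:18813011-18813012 were named on that ground, so their flags follow from the choice. In the libraries labelled control, replicate 4 stood at 5.49 TPM beside a median of 0.867 TPM in the others at chr2L:14713761-14713767, at 7.44 beside 0.0788 TPM at chr3L:3431139-3431180, at 0.761 beside 0.0788 TPM at chr3L:9609061-9609061 and at 5.30 beside 0.0525 TPM at chr3L:18828937-18828999. In the libraries labelled exosome knockdown, replicate 4 stood at 3.55 beside 0.0596 TPM at chr2L:18813011-18813012. The summed values over all starts held no such library.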

How the results depend on the processing

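The number of starts depended on how the opposite strand was judged. It was 1789 with an opposite-strand limit of 0.1 mean TPM, 159 with any opposite-strand TC counted, 1879 within 250 bp and 575 within 1 kb, against 1033. Calling TCs anew without each library, an alternative added after seeing the data, gave 1040 to 1099 starts. Of these, 833 to 912 had the strand and summit of one of the 1033 starts, so the starts were not all the same. The fewest were shared without replicate 4 labelled exosome knockdown. The counts of higher and lower starts ran from 264 to 302 and from 100 to 184 over fits without 1 library, with median log2 fold changes of 0.06 to 0.26. The replicate numbers do not pair the libraries by any label, and same-numbered libraries had correlations of 0.02 to 0.23 of their deviations, so no pairing was assumed, although 7 of the 8 libraries correlated best with their own number. With the replicate number as a block, 314 starts were higher and 184 lower, with a median of 0.14. DESeq2 called 297 higher and 145 lower, of which 277 and 131 were called by edgeR in the same direction.

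The difference of the log2 ratio of the starts to weak divergent TCs, −0.04, became 0.0189 with medians over TCs and ran from −0.141 to 0.0248 without 1 library, above 0 without replicate 1 (0.0248) or replicate 4 (0.00947) labelled exosome knockdown. Neither direction passed a test. The difference of the ratio of sense to antisense starts was −0.55 within 5 kb of a strong TC, with an exact permutation p of 0.0286 that is not adjusted over the 7 tests (main value p = 0.143, adjusted 0.25), and the cause was not tested. Without 1 library the differences (3 against 4, where p cannot go below 0.0571, so without a test) were 129 to 228 TPM for the summed level, 0.01 to 0.13 for the log2 ratio to weak TCs near strong TCs, −0.26 to −0.10 for sense to antisense starts, 38.0 to 53.6 TPM for opposite-strand tags, 0.32 to 1.69 percentage points for the summit share and 52.5 to 76.2 starts for starts with a tag, the last 2 also added after seeing the data. The other alternatives fixed at the start kept each of these results on its side of the threshold or each count within 1.5 times. Depth limits the call of single starts, since a start held as few as 89 tags over the 8 libraries.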

Other observations

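Starts that shared a locus tended to be called in the same direction, as values with no test. Of the 136 loci with more than 1 start, 46 held 2 or more called starts. All called starts were higher in the libraries labelled control in 29 of these and lower in 16, and 1 locus held both. Starts in a locus can stem from the same RNA. Counted by locus, 245 of 827 loci held a start that was higher and 118 a start that was lower. Counts by locus are not given for other weak TCs, so neither result can be read as particular to the starts. Per 1 Mb of the arms, in the 44 full windows, there were 9 to 47 starts with a median of 21.5. Over these windows the number of starts had a Spearman correlation of 0.57 with the number of strong TCs and 0.41 with that of weak divergent TCs, as a description of windows that share libraries. Starts on 2L were higher in 33.3% (plus strand) and 29.1% (minus strand), and on 3L in 22.6% and 24.7%. Over both strands these shares were 31.2% and 23.6%, beside 27.4% on 2L and 25.1% on 3L for all TCs in the same range of level.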
